A study of Caenorhabditis elegans with 6 samples.

Results

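Germlines of F2 worms, the offspring of “red-head” hermaphrodites, were compared with control germlines, using the 2 libraries labelled as offspring germlines and the 2 labelled as HBR1280 control, 4 of the 6 RNA-seq libraries of the study. The members were chosen by these labels and not by any measured value. Worms of the grandparental cross were HBR1281 hermaphrodites and HBR1280 males. HBR1281 carries oxTi411 on chromosome III, in which the eft-3 promoter drives TdTomato::H2B with the 3’UTR of unc-54, together with a Cbr-unc-119(+) marker, and ddIs32, a transgene with a synthetic yfp::gpr-1. HBR1280 carries oxTi75, in which the same promoter drives GFP::H2B with the 3’UTR of tbb-2, together with unc-18(+). Excess GPR-1 pulls the parental chromosome sets apart at the first embryonic division, and in a “red-head” worm the cell that founds the germline keeps the sperm set. The offspring germlines therefore descend through 1 generation whose germ cells carried sperm-derived chromosomes only. The offspring were progeny of “red-head” hermaphrodites, and the study describes their germlines as genetically identical to HBR1280. Control germlines came from HBR1280 hermaphrodites bred from HBR1280 hermaphrodites. All germlines thus carry the GFP::H2B transgene, whose promoter is active in most tissues, and no group lacks it. Every library was made from pooled distal gonad arms of day 1 adults grown at 24 °C, cut at the bend where late pachytene ends, so mature oocytes were not part of the sample. The question was how far the RNA of the germline 1 generation after a sperm-only germline differs from that of HBR1280 control germlines.

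The distal arm of an adult hermaphrodite gonad holds dividing stem cells at its tip, then meiotic cells that pair and recombine their chromosomes, and it supplies much of the RNA that is later packed into oocytes. Replication-dependent core histone genes are transcribed when DNA is copied. In most animals their mRNAs end in a stem-loop instead of a poly(A) tail, and a stem-loop binding protein controls their processing. In C. elegans the genes for histones H2A, H2B, H3 and H4 are present in many near-identical copies, grouped in small divergent sets and in a larger cluster on chromosome II. The libraries were depleted of ribosomal RNA and not selected for poly(A), so transcripts without a tail could be counted.

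Counts on genes totaled 7150847 and 3673141 in the offspring libraries and 7469633 and 4980329 in the control libraries, with 11310273 and 2721055 in those of “red-head” worms, which shared the estimate of spread. Between 10.7% and 15.2% of the tabulated reads fell on no gene. Levels are given as CPM, counts per 1000000 with library sizes scaled by edgeR's TMM factors, and differences as log2 fold changes of offspring over control. After edgeR's filter on low counts 8117 genes were tested. Single libraries of the 2 groups differed by a median absolute log2 difference between 0.12 (offspring replicate 1 against control replicate 1) and 0.23 (offspring replicate 2 against control replicate 2), while the 2 offspring libraries differed from each other by 0.21 and the 2 control libraries by 0.17. Libraries can stand near each other for other reasons than their group, since the file names of offspring replicate 1 and control replicate 1 share a tag, as do those of offspring replicate 2 and “red-head” replicate 2, and what a tag marks is not given in the sources used here. The study describes the 2 libraries of each group as biological replicates, and the labels do not say whether they came from separate cultures, so p-values measure the spread between these libraries, whatever its source.

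In offspring germlines 10 genes were higher than in control (Benjamini-Hochberg adjusted p under 0.05 over 8117 genes, from edgeR's quasi-likelihood test), which is 0.123% of the tested genes, and 0 genes (0%) were lower. All 10 encode core histones. Without adjustment 105 genes had a p under 0.05, and with the 4 compared libraries alone 201 of 7699 did. Both are below the share of 0.05 that would be expected if no gene differed, so the test was conservative here. A gene without a call is therefore not shown to be unchanged. The histone gene his-14, for example, was not called at a log2 fold change of 4.53 (adjusted p = 0.122). DESeq2 on the counts of all 6 libraries called 16 genes higher and 1 lower. Of the 8117 genes, 7741 stayed within 2-fold of control in the fit. Both offspring libraries lay above both control libraries for 1332 genes (16.4%) and below them for 1349 (16.6%), so gene by gene the 2 directions were about equally frequent.

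**Figure D1:**
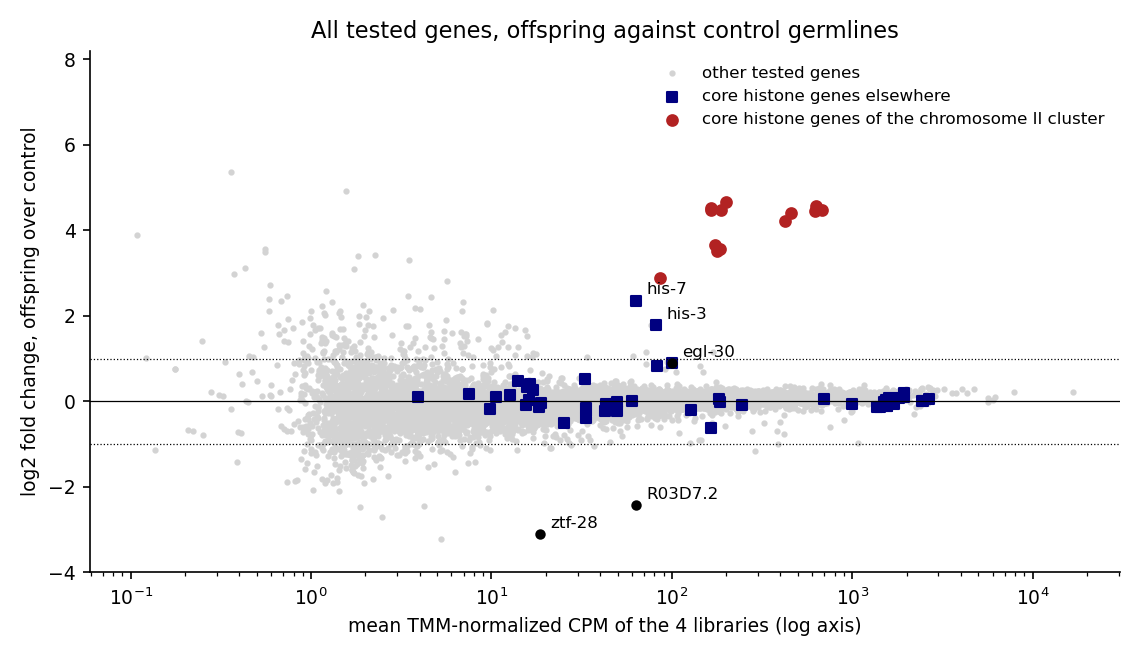
Each point is 1 of the 8117 tested genes, with the mean TMM-normalized CPM of the 4 libraries on a log axis and the log2 fold change of offspring over control on the vertical axis. Dotted lines mark a 2-fold change, black points the named genes that are not histones. The 13 genes of the histone cluster on chromosome II lie between 2.89 and 4.67, above other genes of like level, and most other core histone genes lie near 0.

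The difference was centred on 1 group of genes. The chromosome II cluster holds 13 core histone genes in an unbroken row, with no other annotated protein-coding gene between them, and in both offspring libraries each of the 13 was above both control libraries. Of these, 9 were called higher. Their log2 fold changes had a median of 4.46, where all tested genes had one of 0.00. Earlier results of these data had already shown this class as different, so the median is a description and not a test. Summed over the cluster, the level was 7885 and 7892 CPM in offspring germlines, against 3921 and 3099 CPM in “red-head” germlines and 617 and 184 CPM in control germlines. The offspring libraries were thus almost equal, whereas the controls differed from each other by more than 3-fold in this sum.

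The first gene of the row, his-16 (ZK131.10), which encodes an H2A, had 375 and 391.8 CPM in offspring germlines, against 129 and 139 in “red-head” and 22.5 and 6.28 in control germlines. It had the highest fold change of the cluster, 4.67 on the log2 scale (SE 0.43, adjusted p = 0.023). His-42 (F08G2.3), the last gene of the row and an H3 gene, had 170 and 133 CPM in offspring germlines, against 49.9 and 59.4 in “red-head” and 22.3 and 18.2 in control germlines. Its log2 fold change of 2.89 (SE 0.18, adjusted p = 0.0029) was the smallest of the 13, and its replicates were close to each other in all 3 groups. Neither gene's offspring values came near those of the other groups.

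The 3 H2B genes of the cluster are his-11 (ZK131.5), his-15 (ZK131.9) and his-44 (F08G2.1). Of these, his-44 had 1245 and 1364 CPM in offspring against 90.1 and 25.7 CPM in control germlines, a log2 fold change of 4.47 (SE 0.51, adjusted p = 0.039). His-15 had 1130 and 1241 CPM against 84.3 and 21.4 CPM, and his-11 had 1128 and 1281 CPM against 80.7 and 19.6 CPM. The log2 fold changes of these 2 genes were 4.46 and 4.56, each with an adjusted p of 0.049, just under the threshold. All 3 H2B genes behaved alike, and none of their offspring values overlapped a control value.

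The other H2A genes of the cluster were also called. His-12 (ZK131.6) had 850 and 751 CPM in offspring against 63.9 and 20.4 CPM in control germlines (log2 fold change 4.22, adjusted p = 0.039), and his-43 (F08G2.2) had 932 and 822 CPM against 61.7 and 18.8 CPM (log2 fold change 4.42, adjusted p = 0.039). Of the remaining H3 genes, his-13 (ZK131.7) had 346 and 311.9 CPM in offspring against 38.6 and 17.8 CPM in control germlines (log2 fold change 3.52, adjusted p = 0.025). His-25 (ZK131.2) had 364 and 316 CPM against 40.3 and 16.08 CPM (log2 fold change 3.56, adjusted p = 0.039). The H3 genes had smaller fold changes than the other types, with a median of 3.54, against 4.42 for H2A, 4.47 for H2B and 4.48 for H4. No test was run between the types.

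The 4 cluster genes that did not pass the threshold had log2 fold changes between 3.65 and 4.53, within the range of the called genes. His-14 (ZK131.8), an H4 gene, had 330 and 300 CPM in offspring germlines against 23.5 and 1.96 CPM in control germlines (log2 fold change 4.53, SE 0.68, adjusted p = 0.122). The H4 genes his-10 (ZK131.4) and his-26 (ZK131.1) had 312.4 and 318 CPM against 23.8 and 2.75 CPM (adjusted p = 0.088), and 367 and 355 CPM against 27.02 and 3.73 CPM (adjusted p = 0.085). The H3 gene his-9 (ZK131.3) had 336 and 308 CPM against 38.6 and 11.2 CPM (log2 fold change 3.65, adjusted p = 0.066). All 3 H4 genes of the cluster were therefore among those not called. In each of them the ratio between the 2 controls was larger than that between the 2 offspring libraries, as in most called cluster genes. Control replicate 2 had its lowest levels of the cluster in these 3 genes, from 1.96 to 3.73 CPM. DESeq2 called all 13.

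**Figure D2:**
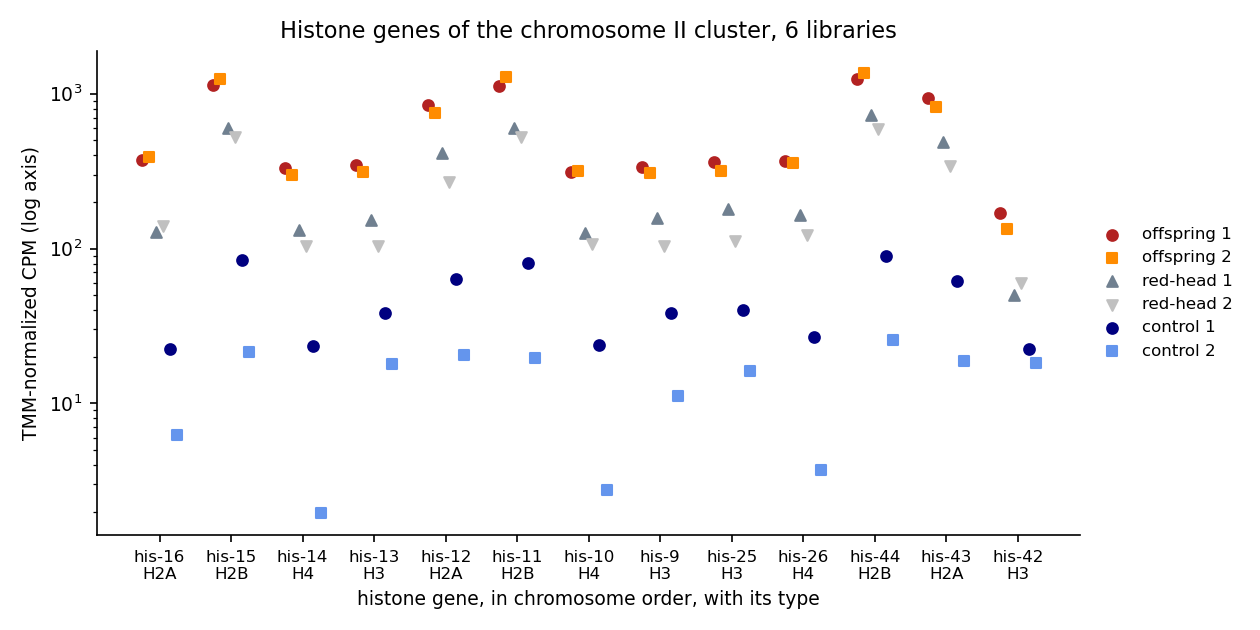
TMM-normalized CPM (log axis) of the 13 genes in the histone cluster on chromosome II, in chromosome order with the histone type under each name, with 1 point per library for offspring, “red-head” and control germlines. In every gene both offspring points lie highest, the “red-head” points in between and the control points lowest, with control 2 below control 1.

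The cluster took 21.7% of all core histone counts in offspring replicate 1 (Wilson 95% interval 21.5% to 21.9%) and 20.6% in replicate 2 (20.4% to 20.8%). In the control libraries the share was 2.03% (1.98% to 2.09%) and 0.645% (0.605% to 0.688%). These intervals cover counting error only. Core histone genes together took 3.51% and 3.62% of all counts in offspring germlines and 3.02% and 2.92% in control germlines. Per kilobase of coding length, the H2B genes of the cluster summed to a mean of 10013 CPM in offspring and 436 CPM in control germlines, beside 25659 CPM in offspring and 24782 CPM in control germlines for the H2B genes of like coding length elsewhere. In offspring germlines the cluster thus took a sizeable part of the H2B counts as assigned, but still less than the other copies of like length together. How far reads shared between copies, or reads from the H2B part of the GFP::H2B transgene, enter these values was not tested.

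The 52 core histone genes outside the cluster did not move with it. Their median log2 fold change was -0.01, and 50 of the 52 had a fitted change of less than 2-fold. Both offspring libraries lay above both controls for 9 of them (17.3%) and below for 3 (5.77%), beside 16.4% and 16.6% of all tested genes. Their summed level was 28469 and 30368 CPM in offspring against 29716 and 28333 CPM in control germlines, with overlapping groups. The gene with the highest mean level was his-48, an H2B gene on chromosome IV, with 2562 and 2874 CPM in offspring and 2751 and 2470 CPM in control germlines (log2 fold change 0.06, SE 0.14). The H2B gene his-66 had 2315 and 2628 CPM in offspring and 2550 and 2324 CPM in control germlines. At these levels a change of the size seen in the cluster would have moved each gene far outside its replicates.

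The 2 exceptions were H2A genes on chromosome V. His-3 (T10C6.12) had 131 and 123 CPM in offspring germlines, against 49.8 and 48.3 in “red-head” and 36.8 and 37.1 in control germlines, and was called higher (log2 fold change 1.78, SE 0.11, adjusted p = 0.0029). His-7 (F45F2.4) had 112 and 99.5 CPM in offspring germlines, against 22.5 and 50.9 in “red-head” and 21.5 and 19.8 in control germlines. Its log2 fold change was 2.36 (SE 0.34), and it did not pass the threshold (adjusted p = 0.1103), although DESeq2 called it. In both genes the offspring libraries stood apart from all 4 others.

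Each of these H2A genes sits in a set of 4 core histone genes, 1 of each type, and its 3 neighbours in the set differed little between the groups. Beside his-3, the H2B gene his-4 had 35.5 and 27.6 CPM in offspring against 33.9 and 36.9 CPM in control germlines, the H3 gene his-2 had 39.1 and 43.98 CPM against 34.6 and 55.3 CPM, and the H4 gene his-1 had 48.7 and 50.3 CPM against 41.5 and 58.2 CPM. Beside his-7, the log2 fold changes of his-8 (H2B), his-6 (H3) and his-5 (H4) were 0.10, -0.22 and 0.00. In all 6 neighbours the values of the 2 groups overlapped. The 10 other H2A genes outside the cluster with the same coding length of 384 nucleotides had log2 fold changes between -0.11 and 0.41, and of these 10 only his-19 had both offspring libraries above both controls, at 22.5 and 14.9 CPM against 14.1 and 14.1 CPM. Among H2A genes with longer annotated transcripts, his-35 had 35.9 and 41.97 CPM in offspring germlines, against 35.3 and 37.9 in “red-head” and 26.3 and 28.05 in control germlines (log2 fold change 0.51, SE 0.18, unadjusted p = 0.021, adjusted p = 0.999), again without overlap, and his-57 had 1578 and 1408 CPM in offspring against 1805 and 1434 CPM in control germlines.

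**Figure D3:**
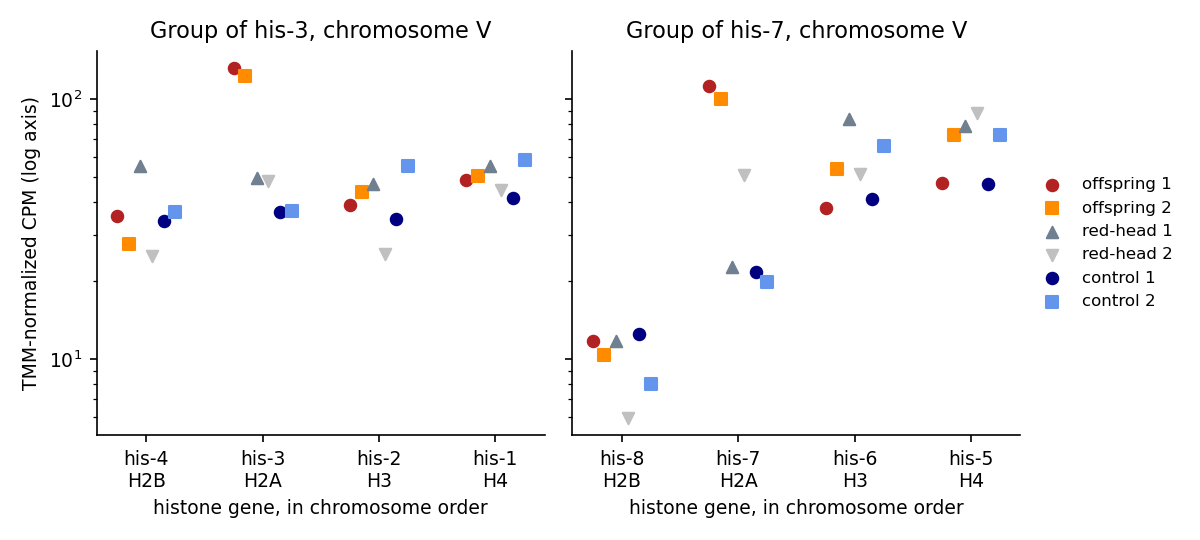
TMM-normalized CPM (log axis) of the 2 sets of 4 core histone genes on chromosome V that contain his-3 (left) and his-7 (right), in chromosome order, with 1 point per library for offspring, “red-head” and control germlines. The offspring points stand above all others for the 2 H2A genes, his-3 and his-7, and mix with the control points for the other 6 genes.

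H2B genes outside the cluster were grouped by their coding length, leaving out those of other lengths. The 2 with 369 nucleotides, the length of the 3 H2B genes of the cluster, were his-29, with 106 and 155 CPM in offspring against 69.4 and 69.6 CPM in control germlines, and his-34, with 82.8 and 129 CPM against 58.3 and 59.6 CPM. Their log2 fold changes were 0.90 (SE 0.90) and 0.83 (SE 0.80), with unadjusted p above 0.05 for both and both offspring libraries above both controls. The “red-head” libraries, which shared the estimate of spread, had 8.31 and 127 CPM for his-29 and 9.80 and 97.3 CPM for his-34. These p-values therefore include the wide spread between the “red-head” libraries. The 10 with 372 nucleotides had log2 fold changes between -0.17 and 0.14. This grouping was chosen after the values were seen and has no test. Copies of 1 histone type are nearly identical, how reads that fit several copies were treated is not given in the sources used here, and the part of shared reads in the values of his-3, his-7, his-29, his-34 and the single cluster genes was not tested.

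Protein-coding genes next to these sets were examined in the same fit. Among the 5 nearest on either side of the chromosome II cluster, 4 of 10 passed the filter, all at 3.36 CPM or less in each of the 4 libraries, and 0 were called. Their log2 fold changes ran from -0.64 to 0.54. Around the set of his-3, 5 of 10 neighbours were tested, with log2 fold changes from -0.59 to 0.11, and around that of his-7, 3 of 10, from -0.10 to 0.09. Among these 3 is a core histone gene, his-39, at 4.63 and 3.45 CPM in offspring against 4.30 and 3.33 CPM in control germlines. Most flanking genes had too few counts to be tested.

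Histone variants can be made outside S phase, and linker histones bind DNA between nucleosomes. They showed 0 calls among 12 tested of 18 genes (median log2 fold change 0.11). The linker histone gene hil-4 had 518 and 518 CPM in offspring and 492 and 542 CPM in control germlines, and htz-1, which encodes the H2A variant H2A.Z, had 438 and 488 CPM against 443 and 524 CPM. The genes for histone mRNA processing and histone chaperones had 0 calls among 13 (log2 fold changes from -0.23 to 0.13). Among them cdl-1, the stem-loop binding protein, had 276 and 300 CPM in offspring and 263 and 276 CPM in control germlines, and spt-16, a subunit of the chaperone FACT, had 640 and 673 CPM against 633 and 638 CPM. Nasp-2, a chaperone of H3, had 861 and 972 CPM in offspring and 952 and 1193 CPM in control germlines.

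Genes that serve DNA replication and the cell cycle, the processes to which core histone transcription is tied, were within 2-fold of control. Of 26 tested replication genes 0 were called, and the log2 fold changes ran from -0.22 to 0.12. The replicative helicase gene mcm-7 had 684 and 781 CPM in offspring and 695 and 739 CPM in control germlines, and rnr-1, the large subunit of ribonucleotide reductase, had 650 and 711 CPM against 673 and 691 CPM. Among 28 cell cycle genes 0 were called, and the log2 fold changes ran from -0.73 to 0.17 around a median of 0.02. The lowest was cyd-1, a D-type cyclin, with 2.46 and 2.59 CPM in offspring against 2.96 and 5.49 CPM in control germlines. Plk-1, the polo-like kinase, had 611 and 683 CPM in offspring and 601 and 584 CPM in control germlines, while cyb-3, a B-type cyclin, had 670 and 622 CPM against 659 and 694 CPM. Whether the share of cells in S phase differed cannot be read from these genes alone, since fewer cells of a type and less RNA per cell cannot be told apart in bulk samples.

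Genes for the programme of the distal arm, from stem cells through meiosis, lay within 2-fold of control. In the stem cell and meiotic entry list 0 of 12 genes were called, and the fitted changes lay between 0.00 and 0.24. The Notch receptor gene glp-1, which keeps stem cells dividing, had 463 and 537 CPM in offspring and 472 and 483 CPM in control germlines. Gld-1, a translational repressor that promotes meiotic entry, had 1567 and 1658 CPM in offspring and 1400.4 and 1335 CPM in control germlines, the highest fold change of that list (0.24, SE 0.18). Of 15 synapsis and chromosome axis genes and 28 pairing and crossover genes 0 were called, with medians of 0.13 and 0.04. Both offspring libraries lay above both controls for 5 of the 12 stem cell and meiotic entry genes (41.7%), 7 of the 15 synapsis genes (46.7%) and 3 of the 28 pairing and crossover genes (10.7%), beside 16.4% of all tested genes. The cohesin gene him-1 had 529 and 559 CPM in offspring against 538 and 455 CPM in control germlines, and him-17, which is needed for meiotic double-strand breaks, had 255 and 278 CPM against 260 and 257 CPM.

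Oogenesis genes were of interest because a germline that comes from sperm chromosomes alone has to make oocytes. Among 22 RNA-binding regulators of the oocyte and 14 genes for eggshell, egg activation and yolk uptake 0 were called, and all 36 were within 2-fold. The 7 genes that the study names as oogenesis genes had log2 fold changes between -0.17 and 0.20. Rme-2, the yolk receptor, had 1962 and 2207 CPM in offspring and 2061 and 2122 CPM in control germlines. The eggshell proteoglycan gene cpg-2 had 2026 and 2255 CPM against 2170 and 2534 CPM, and egg-4, a regulator of egg activation, had 450 and 519 CPM against 462 and 494 CPM. Pie-1, a repressor of transcription in the embryonic germ lineage, had 121.96 and 129 CPM in offspring and 121 and 108 CPM in control germlines. Nos-2, a Nanos family gene, had 100.1 and 82.5 CPM against 90.3 and 116 CPM, and par-6, a polarity gene, had 69.4 and 67.0 CPM against 61.7 and 56.7 CPM. Mex-3, a translational regulator, had 481 and 536 CPM in offspring and 512 and 529 CPM in control germlines. Among these 7 genes both offspring libraries exceeded both controls for pie-1 and par-6 (28.6%, beside 16.4% of all tested genes), and neither difference passed the test.

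Regulators of chromatin and of inherited small RNAs, which carry germline memory between generations in this species, were also close to control. In the chromatin list 0 of 28 were called, and the log2 fold changes lay between -0.45 and 0.16. Mes-3, a subunit of the enzyme that methylates H3 at lysine 27, had 121 and 104.1 CPM in offspring and 121.8 and 116 CPM in control germlines. Mes-4, which methylates H3 at lysine 36, had 216 and 221 CPM against 208 and 207 CPM. Among 31 small RNA genes both offspring libraries lay above both controls for 11 (35.5%) and below them for 4 (12.9%). Over all tested genes these shares were 16.4% and 16.6%. Of the 31 genes 0 were called, and 30 were within 2-fold. The exception was alg-3, an Argonaute of spermatogenesis, with 1.304 and 0 CPM in offspring and 2.29 and 0.981 CPM in control germlines, levels at which the groups cannot be told apart. Hrde-1, the nuclear Argonaute needed for germline inheritance of silencing, had 1848 and 2239.8 CPM in offspring and 1822 and 1820.2 CPM in control germlines, and wago-1 had 1360.5 and 1552 CPM against 1425 and 1413 CPM.

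P granule genes had a median of 0.08 and 0 calls among 12. Both offspring libraries lay above both controls for 4 of the 12 and below them for 4 (33.3% each). Pgl-1, a scaffold of these granules, had 691 and 730 CPM in offspring and 648 and 631 CPM in control germlines. Meg-4, which encodes a disordered protein of embryonic P granules, was lower in both offspring libraries, with 24.5 and 25.6 CPM against 38.3 and 49.6 CPM in control germlines and 54.5 and 35.3 CPM in “red-head” germlines (log2 fold change -0.81, unadjusted p = 0.012, adjusted p = 0.999). Lists for polarity (12 genes tested), apoptosis (13), sex determination (16), kinetochore (16) and tubulin (7) also had 0 calls each, with medians between -0.01 and 0.10. Of these lists only apoptosis had a gene past 2-fold, the cell death activator egl-1 (log2 fold change -1.32), at 0.869 and 0.575 CPM in offspring against 0.807 and 3.14 CPM in control germlines. The share of genes with both offspring libraries above both controls ran from 0% (tubulin) to 43.75% (sex determination) in these lists. The share below both controls ran from 0% (apoptosis) to 14.3% (tubulin). Over all tested genes the shares were 16.4% and 16.6%.

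GPR-1 excess in the grandmother made the sperm-only germline, so the endogenous partners of that pathway were examined. Gpr-1 itself had 62.0 and 77.9 CPM in offspring and 67.6 and 71.4 CPM in control germlines, and its partner lin-5 had 377 and 436 CPM against 397 and 418 CPM. The study describes the offspring germlines as genetically identical to HBR1280, which lacks the HBR1281 transgenes with parts of gpr-1, unc-54 and unc-119. For eft-3, tbb-2 and unc-18, whose parts are in the GFP::H2B transgene, counts do not separate the endogenous gene from the transgene. All 6 genes were within 2-fold and 0 were called. In the same list of spindle and G protein genes, egl-30, which encodes the Gq alpha subunit, had 134 and 126 CPM in offspring germlines, against 127 and 135 in “red-head” and 79.6 and 59.6 in control germlines. The log2 fold change was 0.90 (SE 0.15, unadjusted p = 0.00037, adjusted p = 0.188), and DESeq2 called it. Its offspring and “red-head” values were alike and stood above both controls.

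Genes of protein synthesis lay slightly above control. For 41 of 81 cytosolic ribosomal protein genes (50.6%) and 27 of 41 translation factors (65.9%) both offspring libraries exceeded both controls, where 16.4% of all tested genes did, yet 0 were called in either list and the medians were 0.16 and 0.16. Log2 fold changes ran from -0.69 to 1.23 in the ribosomal list, with 80 of 81 within 2-fold. In the translation factor list they ran from -1.60 to 1.06, with 39 of 41 within 2-fold. Rpl-3 had 4689 and 5721 CPM in offspring and 4436 and 4095 CPM in control germlines (log2 fold change 0.29, SE 0.17), and the elongation factor gene eef-1A.1, also known as eft-3, had 16560.3 and 19534 CPM against 16139.7 and 14735 CPM. The summed level of the ribosomal protein genes was 126857 and 123007 CPM in offspring germlines, against 82868 and 90661 in “red-head” and 116121 and 105013 in control germlines. Without TMM scaling these medians were 0.08 and 0.08, while that of all genes was -0.08. Members of such a list share their control libraries and are not independent of each other.

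Other housekeeping lists had medians closer to 0 and 0 calls each. Proteasome genes had a median of 0.11, with both offspring libraries above both controls in 15 of 33 (45.5%), where 16.4% of all tested genes were. Nuclear genes of the respiratory chain had a median of 0.08, with 19 of 69 (27.5%), and mitochondrial ribosomal protein genes a median of 0.06, with 14 of 68 (20.6%). Against the control mean, the median of the respiratory genes was 0.17 in offspring replicate 1 and -0.01 in replicate 2, and that of the mitochondrial ribosomal protein genes was 0.14 in replicate 1 and -0.05 in replicate 2. The proteasome gene rpn-2 had 867 and 977 CPM in offspring and 871 and 851 CPM in control germlines, and atp-2, a subunit of ATP synthase, had 2179.9 and 2335 CPM against 1967 and 1796 CPM. Of 14 tested heat shock and stress genes 0 were called, with log2 fold changes from -1.17 (hsp-12.2, at under 3 CPM in each of the 4 libraries) to 0.24. Hsp-90 had 5411 and 5795 CPM in offspring and 5737 and 5582 CPM in control germlines, with overlapping groups.

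**Figure D4:**
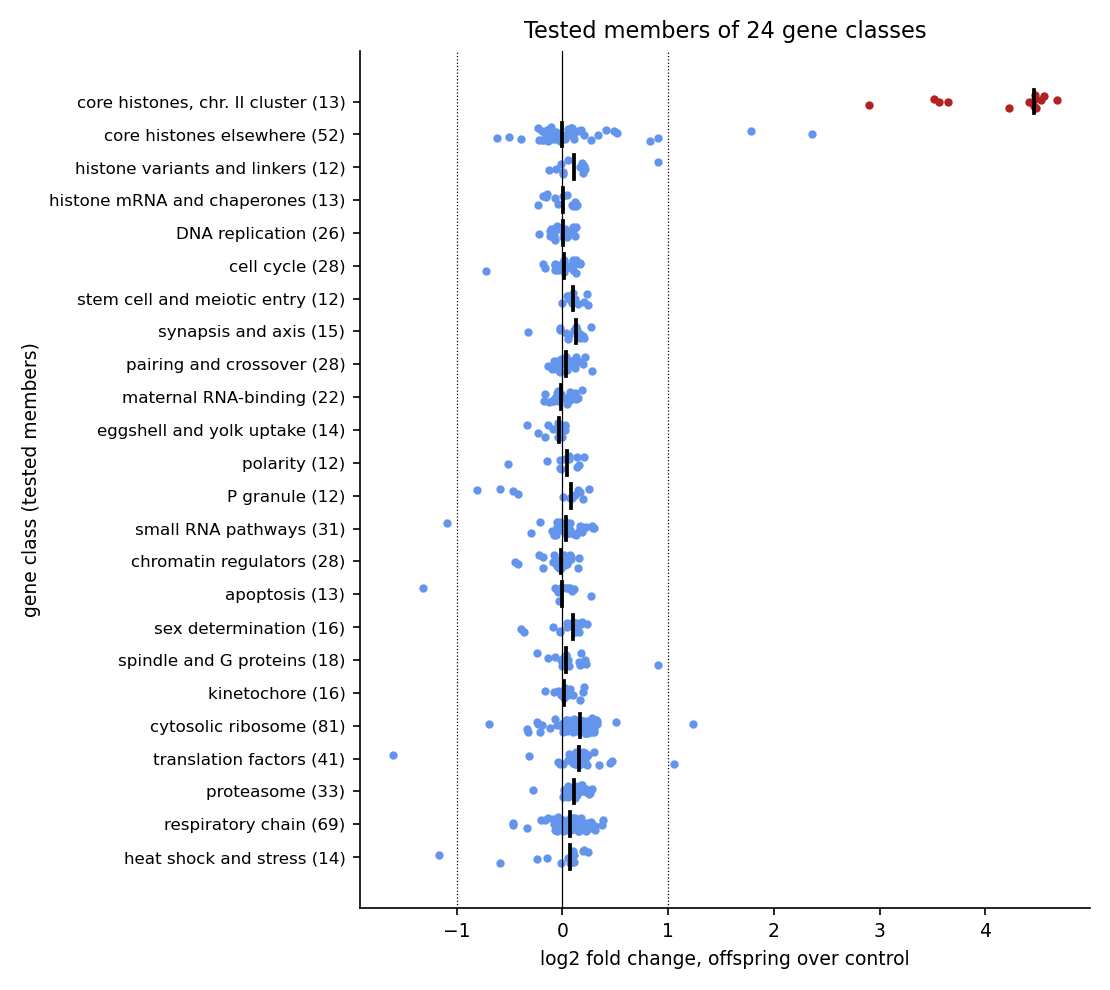
Log2 fold change of offspring over control for each tested member of 24 gene classes (points, with a small vertical jitter), with the class median as a black bar, the number of tested members in parentheses and dotted lines at a 2-fold change. The median of the chromosome II histone cluster is 4.46, and those of the other 23 classes lie between -0.04 and 0.16.

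No gene was called lower. The 5 lower genes of lowest unadjusted p included 2 with large fitted changes. Ztf-28 (F36F12.8), a zinc finger gene, had 6.08 and 1.1499 CPM in offspring germlines, against 9.39 and 6.69 in “red-head” and 42.9 and 24.1 in control germlines (log2 fold change -3.10, SE 0.64, unadjusted p = 0.0017, adjusted p = 0.802). It was the 1 gene that DESeq2 called lower. R03D7.2 had 30.7 and 7.47 CPM in offspring germlines, against 15.4 and 8.17 in “red-head” and 108.9 and 105.7 in control germlines (log2 fold change -2.42, SE 0.53, unadjusted p = 0.0022). In both genes the offspring and “red-head” libraries lay below both controls, and the 2 offspring libraries differed from each other by about 4-fold or more. The other 2, beside meg-4, were Y32H12A.8, with 106 and 105 CPM in offspring against 128 and 137 CPM in control germlines, and the snoRNA gene Y43F4B.12, with 121 and 80.2 CPM against 162 and 217 CPM.

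Some groups separated the 2 offspring libraries more than they separated offspring from control. Germline markers lay slightly above control, with a median log2 fold change of 0.15 and 0 calls (12 of 16, or 75%, with both offspring libraries above both controls, beside 16.4% of all tested genes, and summed level 9865 and 10430 CPM in offspring against 9295 and 8920 CPM in control germlines). Intestine markers summed to 1368 and 211 CPM in offspring, muscle markers to 432 and 148 CPM and hypodermis markers to 715 and 168 CPM, on either side of the control sums of 519 and 361, 268 and 197, and 295 and 222 CPM. Of the intestine list 19 of 20 genes had counts, and the gut transcription factor gene elt-2 was at 0.290 and 0 CPM in offspring and 0 in both controls, while hlh-1, the muscle transcription factor gene, was at 0 in all libraries. The yolk protein gene vit-6 had 325 and 41.7 CPM in offspring against 127 and 82.8 CPM in control germlines. Spermatogenesis markers (81 of 82 with counts, 29 tested) summed to 272 and 205 CPM in offspring against 334 and 249 CPM in control germlines, with overlapping groups. Of the 29 tested, 10 (34.5%) had both offspring libraries below both controls and 0 (0%) above, beside 16.6% and 16.4% of all tested genes. Their median log2 fold change of -0.78 was -0.20 in offspring replicate 1 and -1.60 in replicate 2 against the control mean.

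Small noncoding RNAs were low in offspring replicate 2 and in “red-head” replicate 2, whose names share a tag. The snRNA genes summed to 1653 and 162 CPM in offspring germlines, against 1246 and 300.2 in “red-head” and 1478 and 960 in control germlines. The snoRNA genes summed to 4555 and 1390 CPM in offspring germlines, against 4201 and 2161 in “red-head” and 5068 and 5000 in control germlines. For protein-coding transcripts of up to 500 nucleotides other than histones, the median difference from the control mean was 0.12 in offspring replicate 1 and -0.28 in replicate 2. The 13 cluster histone genes, whose annotated lengths are also below 500 nucleotides, had medians of 4.72 in replicate 1 and 4.81 in replicate 2. Whether transcript length enters these values was not tested. By chromosome, median log2 fold changes were between 0.00 and 0.02 on the 5 autosomes. Of 792 tested X-linked genes 242 (30.6%) had both offspring libraries below both controls, where 16.6% of all tested genes did. Their median was -0.09 in offspring replicate 1 and -0.40 in replicate 2, and between offspring replicate 1 and control replicate 1, whose names share a tag, it was 0.01. The part of tissue content, of small RNA content and of what the tags mark in these differences was not tested.

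**Figure D5:**
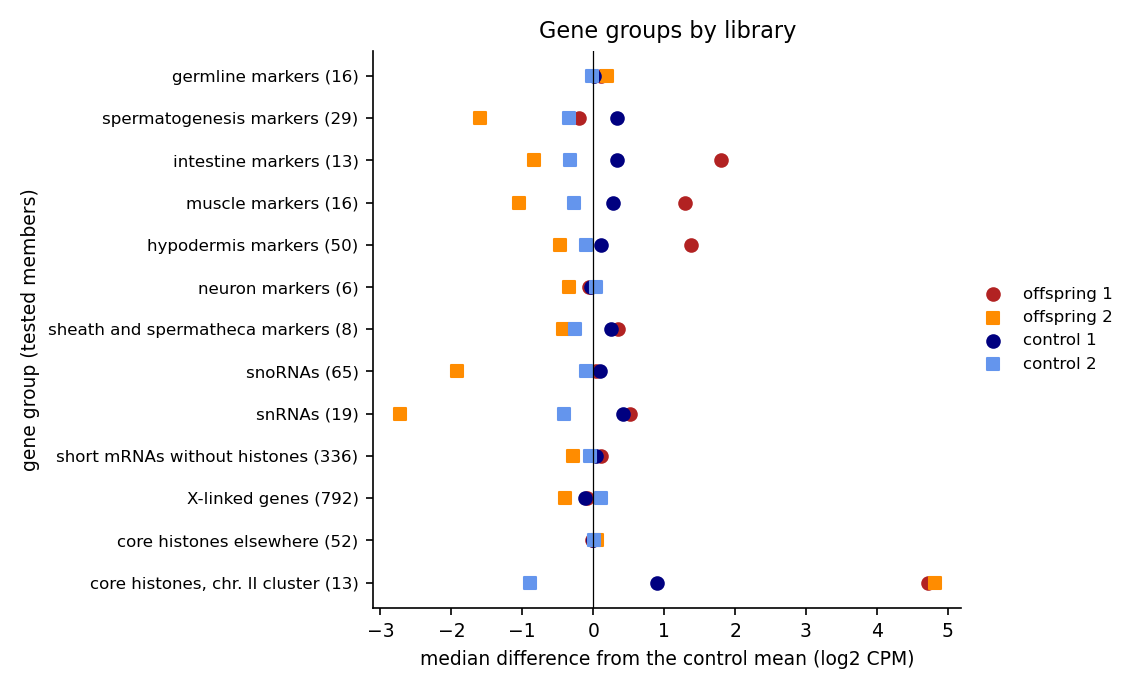
Median difference of each library from the mean of the 2 controls (log2 CPM) for 13 gene groups, with the number of tested members in parentheses, for offspring 1, offspring 2, control 1 and control 2. Offspring 1 and 2 fall on opposite sides of the controls for intestine, muscle and hypodermis markers, offspring 2 lies lowest for snoRNAs and snRNAs, and both lie together near 4.8 for the chromosome II histone cluster.

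The number of calls changed when single libraries were left out. Without offspring replicate 2, 4 of the 10 genes remained called (his-42, his-3, his-16 and his-13). The 6 others kept log2 fold changes between 3.66 (his-25) and 4.50 (his-43), with adjusted p between 0.052 and 0.069 in edgeR's test, and the cluster median was 4.404. Without offspring replicate 1 all 10 remained, together with 2 genes lower, R03D7.2 and Y73B3A.23. Without either control library all 13 cluster genes and his-3 were called, with a cluster median of 5.67 without control replicate 1 and 3.73 without control replicate 2.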

How the data were processed

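RNA from pooled distal gonad arms was depleted of ribosomal RNA and sequenced, with 2 libraries each for offspring, “red-head” and control germlines. The deposited values are raw HTSeq counts per gene, not normalized, which the authors made after TopHat2 alignment to the transcriptome of WS220. Versions are not given in the sources used here. Rows without a gene name entered neither library sizes nor tests, and held 10.7% to 15.2% of reads without a gene and 1.59% to 2.15% ambiguous reads. The authors' table of their own DESeq2 comparisons (fold changes and adjusted p) was not used.

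Of 45461 gene names, 44936 matched RefSeq or Ensembl annotation on WBcel235, which gave symbols, chromosomes, biotypes and lengths. Coordinates of that build served only for lengths and for the RefSeq gene order that gave the neighbours. None were matched to WS220, as the builds differ. The 14 genes named for mitochondrial DNA were at 0 in all libraries.

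The tests used edgeR 4.0.16 in R 4.3.3 (filterByExpr, TMM, glmQLFit over 6 libraries, glmQLFTest, Benjamini-Hochberg adjustment, threshold 0.05), after tests on simulated data. DESeq2 1.42.0 was an alternative, as were other scalings, filters, sample sets and left-out libraries, and the difference between 2 libraries whose names share a tag. Log2 CPM used a prior count of 2. The smallest of the 4 libraries compared held 3673141 counts.

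The named genes were all calls, the 2 most abundant tested members of lists described, the genes the study names, DESeq2-only calls, the rest of the histone cluster and the 5 lower genes of lowest p. Other genes named were chosen after their values were seen (cdl-1 and alg-3 among them, and the neighbours and near-length copies of histone genes). The comparison, the gene lists and the rule were chosen with earlier results of these data known, and some list patterns were updated to newer gene names after the files were read.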

Additional observations from a re-analysis of the deposited data

Results flagged for a closer look

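The H2A gene his-3 differed between the generations, with a log2 difference of 1.37 for offspring minus “red-head” germlines (adjusted p = 0.035 over 8117 genes, edgeR's quasi-likelihood test). The per-library levels were 131 and 123 CPM in offspring and 49.8 and 48.3 CPM in “red-head” germlines, so both offspring libraries were higher. Of the other named genes tested, his-42 of the chromosome II cluster came closest, with a log2 difference of 1.49 (adjusted p = 0.051).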

How the results depend on the processing

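The number of genes higher, 10 as reported, was 4 with library size only, 44 without a filter on low counts and 16 with DESeq2, and ranged from 4 (without offspring replicate 2) to 14 (without either control) when single libraries were left out. The number lower, 0 as reported, was 24 without a filter, 1 with DESeq2 and 0 to 2 with single libraries left out. Without a filter edgeR tested 23478 genes with infinite prior degrees of freedom, so each gene's spread came from the trend alone. All 10 genes remained called there, and with RLE scaling, DESeq2 and the replicate block, while 7 remained with the 4 libraries alone. The share of tested genes within 2-fold of control, 95.4% as reported, was 62.9% without a filter, 99.0% with at least 10 counts in every library, and 87.3% to 94.3% with single libraries left out, where other numbers of genes were tested. The cluster median of 4.46 ranged from 3.73 (without control replicate 2) to 5.67 (without control replicate 1), and was 3.74 between the 2 libraries whose names share a tag. No called gene changed direction under any alternative. Class medians near 0 changed sign with the setting, such as that of histone variants and linker histones (0.11 as reported, -0.02 without control replicate 1), as did that of X-linked genes (-0.22 as reported, 0.01 between the libraries with a shared tag) and that of spermatogenesis markers (-0.78 as reported, 0.09 over the 4 genes with at least 10 counts in every library). The medians of intestine, muscle and hypodermis markers were -1.18, -1.23 and -0.85 without offspring replicate 1 and 1.84, 1.26 and 1.51 without offspring replicate 2.

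With a replicate block in the fit, 13 genes were higher and 0 lower, the added ones being his-9, his-26 and T05A12.4. The replicate numbers name no shared culture in the labels. Across genes, deviations of same-numbered offspring and control libraries had a correlation of 0.392. The differences between replicates thus ran partly the same way in both groups. What same-numbered libraries share was not tested. With 3673141 to 7469633 counts per library compared, depth limits what can be said of genes with few counts, such as those next to the cluster.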
